A study of Mus musculus with 16 samples.

Results

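The IL-7 receptor and STAT5 axis is taken here as 7 genes: Il7r, Il2ra, Crlf2, Jak1, Jak2, Stat5a and Stat5b. Each was read from a probe set of the array that names it and no other gene, and all 7 of the 7 listed genes had exactly 1 such probe set, among 19938 genes measured in all. Their levels were compared in mouse leukemias and in normal B cell precursors on 16 whole-transcript arrays, 1 per sample, with values as normalized log2 intensities. The leukemia groups came from total bone marrow of leukemic mice: 6 samples from mice heterozygous for both genes, Bank1+/- + Pax5+/- (Bank1/Pax5 leukemia), and 6 from Pax5+/- mice (Pax5 leukemia). The comparison group held 4 samples of pro-B and pre-B cells from wild-type mice (WT). The mice were kept in a conventional animal facility and so met common pathogens. No label used here gives age, sex or strain, or how the WT cells were isolated. One label of the WT samples describes leukemic cells, while their genotype and tissue labels give WT pro-B and pre-B cells, and the design text speaks of 3 WT mice where 4 arrays are labelled as WT. The labels call the samples of a group biological replicates.

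The IL-7 receptor joins the chain encoded by Il7r to the common gamma chain, and it carries the survival and proliferation signal of early B cell precursors. Il7r also pairs with the chain encoded by Crlf2 to form the receptor for TSLP, and Il2ra encodes the alpha chain of the IL-2 receptor, CD25, a known surface marker of pre-B cells. On ligand binding, Janus kinases attached to the receptor tails (JAK1 on Il7r, JAK3 on the common gamma chain, JAK2 on many other cytokine receptors and on the TSLP receptor) phosphorylate STAT5A and STAT5B, which then enter the nucleus and bind DNA. Mutations that keep this pathway active are a known feature of B cell precursor leukemia. An array of mRNA measures none of the phosphorylation, so the values below concern transcript levels alone.

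All 7 genes matched an entry among the RefSeq promoter sequences (assembly GRCm38.p6), which gave 9 windows of 300 bases, each ending 50 bases after an annotated start. No label or header used here names the build of the array design. The 4 windows below belong to the genes whose levels differed most between arrays, and they are printed 5′ to 3′ on the strand of the gene. Capitals mark matches, on either strand, to TTCNNNGAA, the spaced palindrome bound by STAT5, or to CAGGAAG, a core bound by ETS factors. GTAAACA, a FOXO element, was also searched and was found in none of the 9 windows. Il7r lies at chr15:9529827-9530126 (minus strand), Il2ra at chr2:11642542-11642841 (plus strand), Jak2 at chr19:29251553-29251852 (plus strand) and the first Stat5b window at chr11:100850532-100850831 (minus strand).
Il7r: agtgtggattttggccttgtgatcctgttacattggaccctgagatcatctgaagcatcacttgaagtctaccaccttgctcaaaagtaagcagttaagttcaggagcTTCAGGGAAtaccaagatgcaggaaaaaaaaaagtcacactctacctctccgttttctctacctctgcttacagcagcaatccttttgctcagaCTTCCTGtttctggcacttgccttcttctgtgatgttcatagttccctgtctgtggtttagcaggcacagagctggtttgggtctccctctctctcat
Il2ra: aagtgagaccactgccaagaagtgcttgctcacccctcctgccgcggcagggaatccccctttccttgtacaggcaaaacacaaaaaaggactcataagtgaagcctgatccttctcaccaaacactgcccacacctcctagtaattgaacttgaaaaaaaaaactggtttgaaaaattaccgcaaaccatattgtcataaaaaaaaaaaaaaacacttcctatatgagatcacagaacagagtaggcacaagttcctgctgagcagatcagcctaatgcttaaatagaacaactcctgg
Jak2: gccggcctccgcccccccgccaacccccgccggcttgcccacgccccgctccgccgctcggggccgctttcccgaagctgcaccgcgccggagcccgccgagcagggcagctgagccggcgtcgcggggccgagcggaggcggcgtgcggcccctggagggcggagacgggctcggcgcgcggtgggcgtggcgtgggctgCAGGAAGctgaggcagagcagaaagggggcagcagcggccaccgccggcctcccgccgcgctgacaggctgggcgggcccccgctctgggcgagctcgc
Stat5b: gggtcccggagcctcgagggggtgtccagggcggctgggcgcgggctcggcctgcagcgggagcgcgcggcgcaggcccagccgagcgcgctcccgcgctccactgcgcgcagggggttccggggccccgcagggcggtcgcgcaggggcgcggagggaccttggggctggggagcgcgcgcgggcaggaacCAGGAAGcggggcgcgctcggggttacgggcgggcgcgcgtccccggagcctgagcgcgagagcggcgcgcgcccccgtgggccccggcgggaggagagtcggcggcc
The Il7r window held 1 match to TTCNNNGAA, first base at position -142 from the start, and 1 to CAGGAAG at position -48, read on the opposite strand. The Jak2 and Stat5b windows each held 1 match to CAGGAAG, at positions -49 and -58. The Il2ra window held no match. Of 32851 promoters of the same length, 8.3% held TTCNNNGAA, 13.27% held CAGGAAG and 3.65% held GTAAACA. These matches describe letters in a window, and the arrays measured no binding.

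Stat5a and Stat5b are neighbouring genes that arose by duplication, and their second annotated windows share a stretch of 65 bases. It is shown because 58 of the 65 bases are identical, with the differing bases in capitals.
Stat5a: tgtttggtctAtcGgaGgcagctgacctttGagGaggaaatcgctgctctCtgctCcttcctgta
Stat5b: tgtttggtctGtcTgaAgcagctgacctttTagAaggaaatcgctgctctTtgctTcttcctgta
The stretch runs from position -66 to position -2 in the Stat5a window at chr11:100860234-100860533 (plus strand) and from -57 to 7 in the Stat5b window at chr11:100822521-100822820 (minus strand). Whether the probes of either gene also take up transcripts of the other was not tested.

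Array medians lay between 6.58 and 6.71. Within a group, arrays correlated over all 35556 probe sets at 0.944 to 0.987 in the Bank1/Pax5 leukemias, 0.968 to 0.982 in the Pax5 leukemias and 0.992 to 0.995 in the WT cells. Of the targeted genes, Bank1 was 1.54 lower in the Bank1/Pax5 than in the Pax5 leukemias (adjusted p = 0.0265). Its mean was 8.63 in Bank1/Pax5, 9.17 in WT and 10.175 in Pax5 samples, so WT lay between the leukemias, nearer to Bank1/Pax5. Bank1/Pax5 array 3, at 9.52, was above the highest WT array, at 9.26, and Pax5 array 1, at 8.80, was below every WT array. The gap between the leukemias is thus no measure of Bank1 loss against WT. Pax5 itself reached only 7.85 and 8.02 on Bank1/Pax5 arrays 1 and 5 and 7.52 on Pax5 array 3, against 11.85 to 12.12 in the WT cells. Markers of pro-B and pre-B cells (15 of 16 measured) include Pax5 and Ebf1. Their median level lay between 11.84 and 11.96 on the WT arrays. The same median ran from 7.58 to 11.36 in the Bank1/Pax5 leukemias and from 7.52 to 11.25 in the Pax5 leukemias, with Enpep dim in both leukemia groups and Rag2 dim in the Bank1/Pax5 leukemias (dim meaning a group mean under 7.01, the median of all named probe sets). Stromal and endothelial markers (12 measured) had array medians of 6.50 to 6.57 in the WT cells, 7.85 to 9.96 in the Pax5 leukemias and 7.95 to 9.89 in the Bank1/Pax5 leukemias. Markers of NK and innate lymphoid cells (9 measured) were instead higher in the WT samples, at 7.67 to 8.79, than in the Pax5 leukemias (5.66 to 5.83) and the Bank1/Pax5 leukemias (5.87 to 7.26). Erythroid markers (5 measured) were at 9.98 to 10.61 in WT, 7.08 to 9.67 in Pax5 and 7.04 to 11.49 in Bank1/Pax5 samples. Neutrophil and granulocyte precursor markers (11 measured) read 10.1 and 9.865 on WT arrays 1 and 2 but 7.41 and 7.33 on WT arrays 3 and 4. The leukemia samples are whole marrow and the WT samples a B cell precursor fraction, so genotype, leukemia and cell composition cannot be told apart in a comparison with WT. In such mixed samples, fewer cells of a type and less RNA per cell cannot be told apart.

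All 7 genes had a larger SD among the arrays of either leukemia group than among the WT arrays, and over all genes the median SD was 0.18 in Bank1/Pax5, 0.159 in Pax5 and 0.0866 in WT samples. The spreads were not tested against each other. A single gene, Jak1, passed the test of means (limma with Benjamini-Hochberg adjustment over all 19938 genes, adjusted p under 0.05), with a lower level in Bank1/Pax5 leukemia than in WT cells. In Pax5 leukemia against WT cells 0 of 7 genes passed, where 23.3% of all genes did, and 2 of 7 had an unadjusted p under 0.05, where 37.5% of all genes did. In Bank1/Pax5 leukemia against WT cells 1 of 7 passed, where 19.6% of all genes did, and 2 of 7 had an unadjusted p under 0.05, against 32.9% of all genes. Between the leukemias 0 of 7 passed, where 6.7% of all genes did, and 0 of 7 had an unadjusted p under 0.05, against 22.7% of all genes. None of the 7 was dim in any group. With genes dim in every group left out, 3585, 3638 and 1331 of 10429 genes passed, in the same order of comparisons. The median difference over the 7 genes was -0.12, 0.12 and 0.26 in these comparisons, beside -0.05, -0.03 and 0.02 over all genes. Both comparisons with WT use the same 4 WT arrays, and each leukemia group enters a pair of comparisons, so the counts are not independent of each other.

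**Figure D1:**
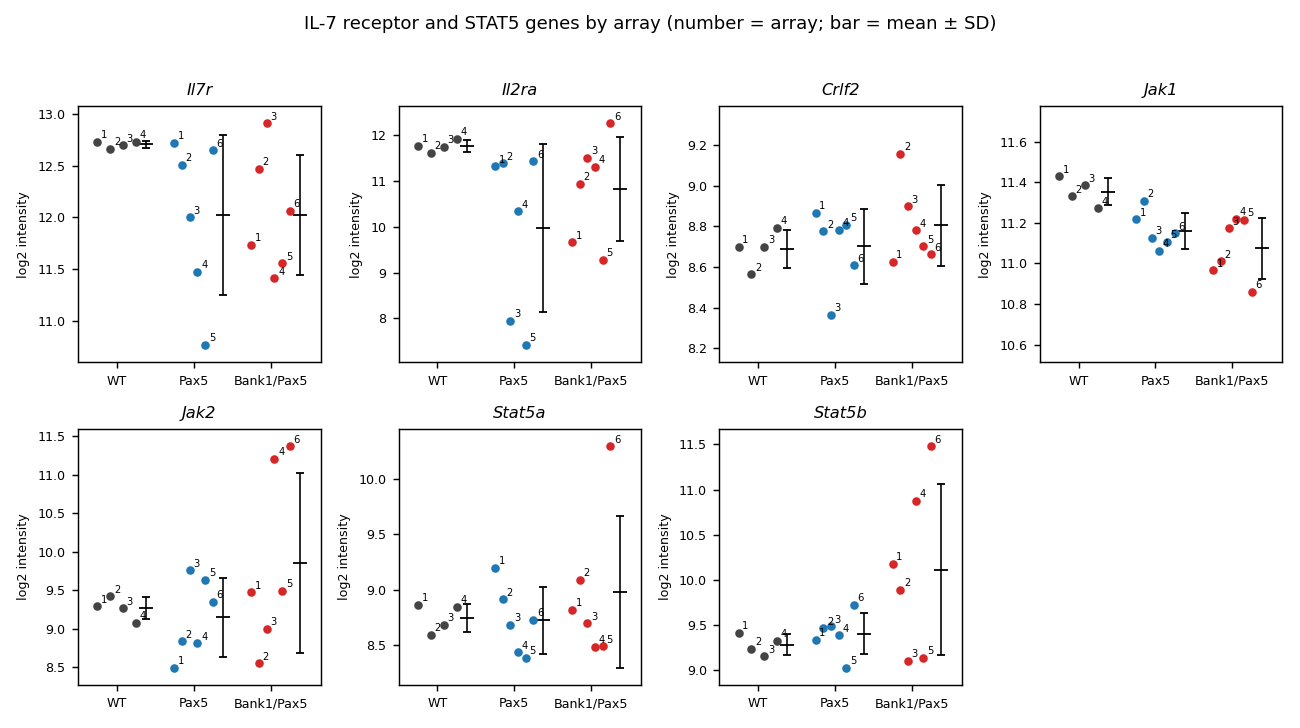
Log2 intensity (vertical axis, a separate scale for each gene) of the 7 genes on every array, by group; each point is 1 array with its number, and the bar beside each group is the mean with SD. The 4 WT arrays lie close together for every gene, while Il7r and Il2ra reach low levels on some leukemia arrays and Jak2 and Stat5b reach high levels on Bank1/Pax5 arrays 4 and 6.

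Il7r, the receptor chain that binds IL-7, was near one level in WT cells, at 12.73, 12.66, 12.70 and 12.73. Pax5 leukemias ran from 10.77 through a median of 12.26 to 12.72, and Bank1/Pax5 leukemias from 11.41 through 11.90 to 12.91. Every Pax5 leukemia was thus below the WT range apart from array 1, which lay within it, and Bank1/Pax5 array 3 was the only leukemia array above it, so both leukemia groups overlapped WT. Pax5 leukemias averaged 12.02 ± 0.78 (SD, n = 6) against 12.71 ± 0.03 (SD, n = 4) in WT cells, a log2 difference of -0.69 (SE 0.37, 95% interval -1.47 to 0.10, adjusted p = 0.186). For Bank1/Pax5 leukemias the mean was 12.02 ± 0.58 (SD, n = 6) and the difference from WT -0.68 (SE 0.37, 95% interval -1.47 to 0.10, adjusted p = 0.212). Neither difference passed, and the leukemia groups had nearly the same mean, with a difference of 0.00 and a 95% interval from -0.70 to 0.70 (adjusted p = 0.995). In order, WT was highest, followed by both leukemia groups, and no neighbours in that order differed beyond their spread. The SD of Il7r exceeded that of 95.8% of genes in the Pax5 leukemias and 88.5% in the Bank1/Pax5 leukemias, but of 7.6% of genes among WT arrays.

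Il2ra, the IL-2 receptor alpha chain, was the most variable member in Pax5 leukemia. WT arrays read 11.76, 11.62, 11.75 and 11.93. Pax5 leukemias ran from 7.42 through a median of 10.83 to 11.43, and arrays 3 and 5, at 7.94 and 7.42, lay far below the other 4, which were at 10.34 to 11.43. No Pax5 leukemia reached the lowest WT array, so these groups did not overlap, which was true of 24.8% of all genes in this comparison, and of 13.2% with the leukemias lower. The difference was -1.79 (SE 0.81, 95% interval -3.53 to -0.05), a 3.46-fold lower mean, with an adjusted p of 0.123, so it did not pass. In Bank1/Pax5 leukemias Il2ra ran from 9.28 through 11.13 to 12.26, with arrays 1 and 5 lowest (9.67 and 9.28) and array 6 above every WT array. The mean was 10.83 ± 1.14 (SD, n = 6) against 11.77 ± 0.13 in WT cells (SD, n = 4) and 9.97 ± 1.83 in Pax5 leukemias (SD, n = 6). Bank1/Pax5 differed from WT by -0.94 (SE 0.81, 95% interval -2.68 to 0.80, adjusted p = 0.449) and from Pax5 leukemia by 0.85 (SE 0.73, 95% interval -0.70 to 2.41, adjusted p = 0.516). The order was WT, Bank1/Pax5, Pax5, with no neighbours differing beyond their spread, and the SD of Il2ra in Pax5 leukemia exceeded that of 99.7% of genes.

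Pax5 arrays 3 and 5, the lowest for Il2ra and, for Il7r, at 12.002 and 10.77, were also those with the lowest pro-B and pre-B marker level, 7.52 on each, against 9.66 to 11.25 on the other Pax5 arrays. Their Pax5 levels differed, 7.52 on array 3 and 11.82 on array 5. Pax5 is itself one of these markers, and on array 3 the marker level is the Pax5 reading, not a separate measure. Of the other cells that carry CD25 or the IL-7 receptor, regulatory T cell markers (4 measured) had array medians of 6.81 to 6.85 in WT cells, 6.17 to 6.53 in Pax5 leukemias and 6.37 to 7.13 in Bank1/Pax5 leukemias, and T cell markers (12 measured) 6.45 to 6.65, 5.74 to 6.16 and 6.22 to 7.15. Most of these markers were dim: 2 of 4 regulatory T cell markers in WT cells and 3 in each leukemia group. The same held for 8 of 12 T cell markers in WT and Bank1/Pax5 samples and 9 in Pax5 samples. The part of these cell types in the receptor levels was not tested.

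Crlf2, the TSLP receptor chain, hardly moved. WT arrays read 8.70, 8.56, 8.70 and 8.79. Pax5 leukemias ran from 8.37 through 8.78 to 8.87 and Bank1/Pax5 leukemias from 8.63 through 8.74 to 9.16, with all 3 groups overlapping and Bank1/Pax5 array 2 the highest. Differences from WT were 0.01 in Pax5 leukemia (SE 0.11, 95% interval -0.22 to 0.25, adjusted p = 0.945) and 0.11 in Bank1/Pax5 leukemia (SE 0.11, 95% interval -0.12 to 0.35, adjusted p = 0.497). Between the leukemias the difference was 0.10 (95% interval -0.11 to 0.31, adjusted p = 0.564). The 3 means, 8.80, 8.70 and 8.69 for Bank1/Pax5, Pax5 and WT, could not be ordered beyond their spread.

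Jak1, the kinase bound to Il7r, fell in Bank1/Pax5 leukemia. WT arrays read 11.43, 11.33, 11.39 and 11.27, and Bank1/Pax5 leukemias ran from 10.86 through a median of 11.09 to 11.22. Every Bank1/Pax5 leukemia was below every WT array, as held for 12.3% of all genes in this comparison (19.6% in either direction). The means were 11.07 ± 0.15 (SD, n = 6) and 11.35 ± 0.07 (SD, n = 4), a difference of -0.28 (SE 0.07, 95% interval -0.44 to -0.12, adjusted p = 0.0152), or 1.21-fold. Pax5 leukemias ran from 11.06 through 11.14 to 11.31, with array 2 inside the WT range and the other 5 below it. They averaged 11.16 ± 0.09 (SD, n = 6), which was 0.19 below WT (log2 difference -0.19, SE 0.07, 95% interval -0.35 to -0.04) and did not pass at an adjusted p of 0.0722. Between the leukemias the difference was -0.09 (SE 0.07, 95% interval -0.23 to 0.05, adjusted p = 0.459). The order was WT, Pax5, Bank1/Pax5, and of these levels only the ends differed beyond the spread. The Jak1 call was lost under cyclic loess scaling (-0.15, adjusted p = 0.314) and without WT array 1 (-0.26, adjusted p = 0.0544).

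Jak2, a kinase used by the TSLP receptor and by myeloid and erythroid cytokine receptors, was high in a part of one leukemia group. WT arrays read 9.29, 9.42, 9.27 and 9.08, and Pax5 leukemias lay on both sides of them, from 8.50 through 9.09 to 9.76. In the Bank1/Pax5 leukemias arrays 4 and 6 stood at 11.20 and 11.37, while the other 4 ran from 8.55 to 9.50. These 4 overlapped both other groups, and arrays 4 and 6 lay above all other arrays. The group mean was 9.85 ± 1.17 (SD, n = 6), against 9.15 ± 0.51 in Pax5 leukemias (SD, n = 6) and 9.27 ± 0.14 in WT cells (SD, n = 4). The differences from WT were 0.58 (SE 0.48, 95% interval -0.45 to 1.62, adjusted p = 0.426) in Bank1/Pax5 and -0.12 (SE 0.48, 95% interval -1.15 to 0.92, adjusted p = 0.882) in Pax5 leukemia. Bank1/Pax5 exceeded Pax5 leukemia by 0.70 (SE 0.43, 95% interval -0.22 to 1.62, adjusted p = 0.353). The order Bank1/Pax5, WT, Pax5 therefore had no neighbours that differed beyond their spread.

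Stat5b, encoding one of the pair of STAT5 factors, was high on the same arrays. Bank1/Pax5 leukemias read 10.18, 9.89, 9.10, 10.87, 9.13 and 11.48 from array 1 to array 6, with arrays 4 and 6 again highest. WT arrays read 9.42, 9.23, 9.15 and 9.33, and Pax5 leukemias ran from 9.03 through 9.42 to 9.72. Bank1/Pax5 arrays 3 and 5 were below every WT array, and the other 4 were above every WT and every Pax5 array. The mean of 10.11 ± 0.95 (SD, n = 6) differed from the WT mean of 9.28 ± 0.11 (SD, n = 4) by 0.83 (SE 0.37, 95% interval 0.04 to 1.62, unadjusted p = 0.0414 from limma, adjusted p = 0.134). From the Pax5 mean of 9.40 ± 0.23 (SD, n = 6) it differed by 0.71 (SE 0.33, 95% interval -0.00 to 1.41, adjusted p = 0.222). Pax5 leukemia differed from WT by 0.12 (SE 0.37, 95% interval -0.67 to 0.91, adjusted p = 0.836). Bank1/Pax5, Pax5 and WT was the order of means, and none of these steps passed.

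Stat5a, encoding the other STAT5 factor, stood apart on 1 array. Bank1/Pax5 array 6 read 10.29, while the other Bank1/Pax5 arrays lay between 8.49 and 9.09. WT arrays read 8.86, 8.59, 8.68 and 8.84, and Pax5 leukemias ran from 8.38 through 8.70 to 9.20, so that the groups overlapped apart from that array. Differences from WT were 0.23 in Bank1/Pax5 (SE 0.29, 95% interval -0.38 to 0.84, adjusted p = 0.604) and -0.02 in Pax5 leukemia (SE 0.29, 95% interval -0.63 to 0.59, adjusted p = 0.966). Between the leukemias the difference was 0.25 (SE 0.26, 95% interval -0.29 to 0.80, adjusted p = 0.582). Without array 6 the Bank1/Pax5 leukemias differed from WT by -0.03 and from Pax5 leukemia by -0.01, the opposite direction. The group means of 8.98, 8.74 and 8.72 (Bank1/Pax5, WT and Pax5) could not be ordered beyond their spread.

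Cell-type markers on Bank1/Pax5 arrays 4 and 6 were read beside these levels. Their pro-B and pre-B marker levels were 7.58 and 8.64, against 9.46 to 11.36 on the other 4 arrays of the group. Monocyte and macrophage markers (11 measured) stood at 10.96 on array 4, near the 10.68 of array 5, where Jak2 was 9.50 and Stat5b 9.13, and at 9.04 on array 6, within the 8.17 to 9.10 of arrays 1 to 3. Erythroid markers (5 measured) stood at 11.49 on array 4, beside 11.34 on array 1 and 10.77 on array 5, and at 8.17 on array 6, beside 8.16 on array 2. Array 6 stood apart from its group in dendritic cell markers (8 measured), at 9.38 against 6.51 to 7.65 on the other Bank1/Pax5 arrays and 8.64 to 9.28 in WT cells. Pax5 array 3 also stood apart from its group in these markers, at 8.98 against 6.28 to 6.82 on the other Pax5 arrays. On that array Jak2 read 9.76, Stat5b 9.485 and Stat5a 8.68. The part of these cell types in the Jak2 and STAT5 levels was not tested.

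**Figure D2:**
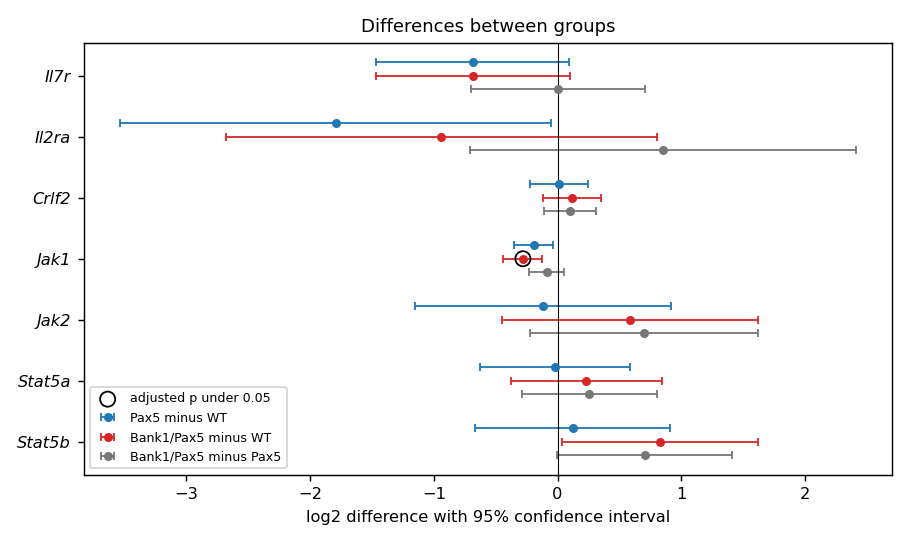
Log2 difference between groups (horizontal axis) for the 7 genes, with 95% confidence intervals, from limma on 16 arrays; a circled point has an adjusted p under 0.05. Only Jak1 in Bank1/Pax5 minus WT, at -0.28, is circled, and the intervals of Il2ra and Jak2 are the widest.

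To see whether the members moved together among leukemias, their 21 pairs were correlated over the 12 leukemia arrays after removing each group mean, with permutation of arrays within groups. No pair passed after adjustment over the 21 pairs. Il7r and Il2ra had r = 0.678 (permutation p = 0.0323, adjusted p = 0.311) and rho = 0.643 (permutation p = 0.0436, adjusted p = 0.218). Within the Pax5 leukemias r was 0.79 and within the Bank1/Pax5 leukemias 0.447, and leaving out Bank1/Pax5 array 3 and Pax5 array 5, farthest from the Il7r median, gave 0.479. Il2ra and Stat5a had r = 0.519 (permutation p = 0.0386, adjusted p = 0.311), rho = 0.583 (permutation p = 0.0495, adjusted p = 0.218), 0.619 and 0.637 within the Bank1/Pax5 and Pax5 leukemias, and 0.634 without Pax5 arrays 3 and 5. Il7r and Stat5a had the smallest p by rank, with rho = 0.683 (permutation p = 0.0212, adjusted p = 0.218), while r was 0.399 (permutation p = 0.175, adjusted p = 0.407). Within the Bank1/Pax5 and Pax5 leukemias r of that pair was 0.217 and 0.862, and without Bank1/Pax5 array 3 and Pax5 array 5 it was 0.567.

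Jak2 and Stat5b had the highest r of the 21 pairs, 0.733 (permutation p = 0.0592, adjusted p = 0.311), with rho = 0.725 (permutation p = 0.0305, adjusted p = 0.218). That relation rested on Bank1/Pax5 arrays 4 and 6: r was 0.83 within the Bank1/Pax5 leukemias, -0.07 within the Pax5 leukemias and -0.08 without those arrays. Crlf2 and Jak2 ran in opposite directions, with r = -0.59 (permutation p = 0.0521, adjusted p = 0.311), rho = -0.58 (permutation p = 0.0623), -0.59 and -0.70 within the Bank1/Pax5 and Pax5 leukemias, and -0.32 without Bank1/Pax5 array 2 and Pax5 array 3.

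**Figure D3:**
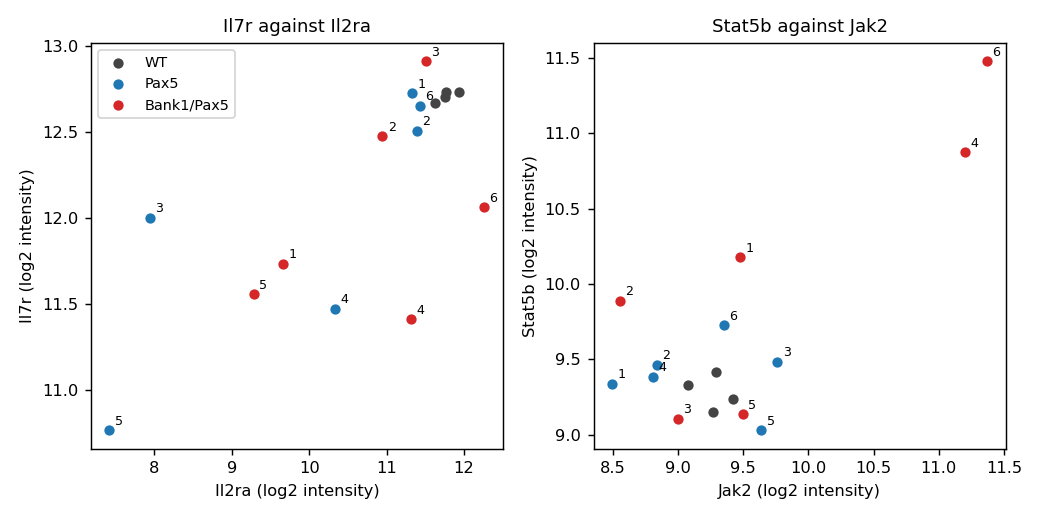
Log2 intensity of Il7r against Il2ra (left) and of Stat5b against Jak2 (right), 1 point per array, coloured by group, with array numbers for the leukemias. Pax5 arrays 3 and 5 are lowest for Il2ra, and Bank1/Pax5 arrays 4 and 6 lie apart from all others at the upper right of the Stat5b and Jak2 plot.

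The genes with the most similar profile to each member over the 16 arrays were then read off among 9963 genes that were not dim in every group. Members, immunoglobulin and T cell receptor segments, RIKEN, predicted and small RNA genes had been left out. The result describes these arrays, which share their mixture of cells and the contrast with WT. For Il7r the nearest were Rag1, the recombinase that assembles antigen receptor genes, with r = 0.857, Cyth1 with 0.856 and Ifi209 with 0.84. With group means removed these values were 0.821, 0.823 and 0.796 over the 12 leukemia arrays. Rag1 read 11.24 to 11.64 in WT cells, and it ran from 5.65 on Pax5 array 5 to 11.22 on Pax5 array 6 and from 5.79 on Bank1/Pax5 array 4 to 10.67 on array 2. Both arrays with the lowest Rag1 in their group were also the lowest of the group for Il7r. Il2ra was most like Ifi214 (0.855), Ifi209 (0.853) and Slamf7 (0.832). For Crlf2 the nearest were Tanc1 (0.855), Spout1 (0.803) and Tmem11 (0.78), which came to 0.599, 0.585 and 0.341 without Bank1/Pax5 array 2 and Pax5 array 3. For Jak1 they were Arhgap45 (0.885), Dffa (0.869) and Klf13 (0.865).

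Jak2 was closest to Slc30a7 (0.936), Ptpn1, a phosphatase that acts on Janus kinases (0.926), and P2ry14 (0.926). Ptpn1 was also among the nearest to Stat5b (0.856), with Adipor2 (0.873) and Pdia5 (0.856). Bank1/Pax5 arrays 4 and 6 carried much of this likeness: Ptpn1 read 11.35 and 11.38 on them, and without them its r with Jak2 was 0.581 and with Stat5b 0.202. Stat5a was closest to the interferon-induced genes Mx1 (0.845) and Ifit2 (0.819) and to Daxx (0.825). Mx1 and Ifit2 read 10.81 and 10.65 on Bank1/Pax5 array 6, against at most 7.03 and 7.69 on every other array. Without that array and Pax5 array 1 their r with Stat5a was 0.164 and 0.02.

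The rest of the pathway was described from lists of 69 other genes, of which 65 were measured. In Pax5 leukemia against WT 8 rose and 15 fell (35.4% of the 65, median difference -0.14), and in Bank1/Pax5 leukemia against WT 4 rose and 13 fell (26.2%, median -0.07). Between the leukemias 0 were higher and 3 lower in Bank1/Pax5 (4.6%, median 0.04). Beside these stand 9.53% of all genes that rose and 13.8% that fell, 6.8% and 12.8%, and 1.71% and 5%. Without WT arrays 3 or 4 the first of these counts was 13 and 15 in place of 23. Between the leukemias it became 7 without Bank1/Pax5 array 2, 5 without Bank1/Pax5 array 3 and 5 without Pax5 array 3. With genes dim in every group left out, 23, 20 and 3 of 62 pathway genes were called in the 3 comparisons. Beside these stand 3585, 3638 and 1331 of 10429 genes over the whole array under the same filter.

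Of ligands, partner chains and kinases, 7 of 9 were measured, and 2 fell in Pax5 leukemia, where 13.8% of all genes fell. In limma 0 of 7 passed in Bank1/Pax5 leukemia and between the leukemias, with 0 and 1 at an unadjusted p under 0.05. Of all genes 19.6% and 6.7% passed there, with 32.9% and 22.7% at an unadjusted p under 0.05. The ligand genes Il7, Tslp and Il2 were dim in every group: Il7 averaged 4.94 in WT, 4.90 in Pax5 and 5.09 in Bank1/Pax5 samples, and Tslp 4.78, 4.78 and 4.82. Il2rg, the common gamma chain, had no probe set to itself and Jak3 shares its probe set with Insl3, so neither was analysed here. Il2rb, the beta chain shared by the IL-2 and IL-15 receptors, read 9.84, 9.22, 9.10 and 8.61 in WT cells and ran from 6.07 through 6.36 to 8.22 in Pax5 leukemias, without overlap. The same held, with the leukemias lower, for 13.2% of all genes. Il2rb fell in Pax5 leukemia by 2.59 (log2 difference -2.59, SE 0.60, adjusted p = 0.00608). The NK and innate lymphoid markers given above were also lower there, with all 9 dim in Pax5 leukemia. Their level was 5.75 on both Pax5 arrays 5 and 6, where Il2rb read 8.22 and 6.49. In Bank1/Pax5 leukemias Il2rb ran from 6.06 through 8.16 to 9.50 and did not pass (-1.14, adjusted p = 0.2). The part of NK and innate lymphoid cells in the Il2rb level was not tested. Il15 fell in Pax5 leukemia (-0.92, SE 0.28, adjusted p = 0.0273), a call lost with WT array 2, WT array 3 or Pax5 array 4 left out (adjusted p up to 0.0975 over the alternatives).

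Among 14 measured receptors of other cytokines and growth factors, 3 rose and 1 fell in Pax5 leukemia, 2 rose in Bank1/Pax5 leukemia, and 0 of 14 passed between the leukemias (0 at an unadjusted p under 0.05 in limma). Of all genes, 9.53% rose and 13.8% fell in Pax5 leukemia and 6.8% rose in Bank1/Pax5 leukemia. Between the leukemias 6.7% passed, with 22.7% at an unadjusted p under 0.05. Kit, the stem cell factor receptor, read 7.63, 7.68, 7.68 and 7.23 in WT cells and ran from 8.404 through 8.47 to 9.98 in Bank1/Pax5 leukemias, where it rose by 1.25 (SE 0.30, adjusted p = 0.00845). In Pax5 leukemias Kit ran from 7.77 through 8.50 to 8.99 and rose by 0.91 (SE 0.30, adjusted p = 0.0403), a call lost when any single WT array was left out. Ifngr1, an interferon gamma receptor chain, rose by 0.67 in Pax5 and 0.62 in Bank1/Pax5 leukemia (adjusted p = 0.018 and 0.0299), and Il6ra by 1.01 in Pax5 leukemia (adjusted p = 0.02). Each of these 3 calls was lost without WT array 3, that of Ifngr1 in Pax5 leukemia also without WT array 4, and that of Ifngr1 in Bank1/Pax5 leukemia without any single WT array, without Bank1/Pax5 array 5 and without the arrays with low Pax5. Markers of other marrow cells were divided in the same comparisons. Of monocyte and macrophage markers, 5 of 11 rose in Pax5 and 8 of 11 in Bank1/Pax5 leukemia. Of megakaryocyte and platelet markers, 5 of 5 rose in both, where 9.53% and 6.8% of all genes rose. The array medians of the first list were 6.61 to 6.72 in WT, 8.17 to 9.68 in Pax5 and 8.17 to 10.96 in Bank1/Pax5 samples, and those of the second 6.83 to 7.16, 8.74 to 11.34 and 9.39 to 12.03. By contrast, 0 of 11 neutrophil and granulocyte precursor markers, 0 of 5 erythroid and 0 of 8 dendritic cell markers rose in either leukemia. Among them, 1 erythroid marker fell in Pax5 leukemia and 1 dendritic cell marker fell in both. The part of all these cells in the receptor levels was not tested. Il3ra fell in Pax5 leukemia by a small amount (-0.33, adjusted p = 0.00804). Of 4 other STAT genes measured, Stat6 fell in Pax5 leukemia (-0.33, adjusted p = 0.0449), with the call lost in 13 of 25 alternatives.

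Genes that restrain JAK and STAT signalling were divided. Of 20, 3 rose and 2 fell in Pax5 leukemia, 1 rose and 4 fell in Bank1/Pax5 leukemia, and between the leukemias 2 were lower in Bank1/Pax5. Over all genes 9.53% rose and 13.8% fell in the first comparison, 6.8% and 12.8% in the second, and 5% were lower in the third. Cish and Socs2, feedback inhibitors that STAT5 is known to induce, were at 6.97 to 7.07 and 9.43 to 10.10 in WT cells. Cish ran from 8.42 through 9.36 to 9.98 in Pax5 leukemias, all above WT, and rose by 2.21 (SE 0.58, adjusted p = 0.0137). In that comparison 24.8% of all genes had no overlap, in either direction. In Bank1/Pax5 leukemias Cish ran from 6.40 on array 2 to 10.53 on array 6, and the difference from WT of 1.57 did not pass (adjusted p = 0.0746). Socs2 rose in Pax5 leukemia by 2.18 (SE 0.47, adjusted p = 0.00405) and in Bank1/Pax5 leukemia by 1.87 (SE 0.47, adjusted p = 0.0119). Its levels were 11.69 to 12.39 in Pax5 and 9.84 to 12.96 in Bank1/Pax5 leukemias, with arrays 4 and 6 highest at 12.79 and 12.96.

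Pias1, an inhibitor of activated STAT proteins, fell in both leukemias, by 0.71 in Pax5 (log2 difference -0.71, SE 0.09, adjusted p = 6.33e-05) and by 0.60 in Bank1/Pax5 leukemia (-0.60, SE 0.09, adjusted p = 0.000297). Cblb, a ubiquitin ligase, also fell in both (-0.71 and -0.92, adjusted p = 0.0214 and 0.00547), although the Pax5 call was lost without WT array 1, 3 or 4. Socs6 separated the leukemias: Bank1/Pax5 arrays ran from 7.43 through 7.66 to 7.96 and Pax5 arrays from 8.04 through 8.41 to 8.96, without overlap, which held for 2.7% of all genes, and for 1.87% with Bank1/Pax5 lower. The difference of -0.81 (SE 0.14, adjusted p = 0.00497) kept its call in all 25 alternatives, though it was -0.39 in the smallest of them. WT arrays of Socs6 ran from 7.76 to 8.04, overlapping Bank1/Pax5 leukemia, where the difference from WT did not pass (-0.27, adjusted p = 0.24). In Pax5 leukemia Socs6 rose against WT (0.54, adjusted p = 0.0226), a call lost in 4 of 25 alternatives. Pias2 was also lower in the Bank1/Pax5 leukemias (-0.36, adjusted p = 0.0451), a call lost in 19 of 25 alternatives.

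Of 12 genes known as STAT5 targets in lymphoid cells, 4 rose and 4 fell in Pax5 leukemia and 2 rose and 3 fell in Bank1/Pax5 leukemia, with median differences of 0.48 and 0.43, and 0 of 12 passed between the leukemias (4 at an unadjusted p under 0.05 in limma). Cish and Socs2 stand in this list too. Of all genes, 9.53% rose and 13.8% fell in Pax5 leukemia, and 6.8% rose and 12.8% fell in Bank1/Pax5 leukemia. Between the leukemias 6.7% of all genes passed, and 22.7% had an unadjusted p under 0.05. Myc rose by 1.93 (SE 0.17, adjusted p = 3.77e-06) and 1.56 (SE 0.17, adjusted p = 2.41e-05) in Pax5 and Bank1/Pax5 leukemia. Bcl2l1, which encodes the survival factor BCL-XL, fell in both (-1.71 and -1.27, SE 0.34 each, adjusted p = 0.00245 and 0.0175). Mcl1, another survival factor of the family, fell as well (-0.74 and -0.44, adjusted p = 0.000612 and 0.0196), and the Bank1/Pax5 call was lost in 4 of 25 alternatives, among them cyclic loess scaling (adjusted p = 0.182) and leaving out WT array 1. Ccnd3, the cyclin of dividing pre-B cells, fell by similar amounts (-1.04 and -1.19, adjusted p = 0.0136 and 0.00696).

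Of 11 transcription factors known to act on Il7r in lymphoid cells, 0 rose and 5 fell in Pax5 leukemia, 0 rose and 6 fell in Bank1/Pax5 leukemia, and between the leukemias 1 was lower in Bank1/Pax5. The median differences were -0.60, -1.02 and -0.25. Of all genes, 9.53% rose and 13.8% fell in Pax5 leukemia, and 6.8% rose and 12.8% fell in Bank1/Pax5 leukemia. Between the leukemias 5% were lower in Bank1/Pax5. Foxo1, an activator of Il7r in B cell precursors, read 10.98 to 11.08 in WT cells. It ran from 8.44 through 9.48 to 10.05 in Pax5 and from 7.97 through 8.32 to 10.01 in Bank1/Pax5 leukemias, so no leukemia array reached WT. Of all genes, 13.2% lay wholly below WT in Pax5 and 12.3% in Bank1/Pax5 leukemias. The Foxo1 differences were -1.70 (SE 0.41, adjusted p = 0.0081) and -2.37 (SE 0.41, adjusted p = 0.00093). Ikzf1, encoding Ikaros, fell by 0.60 in Pax5 (log2 difference -0.60, SE 0.10, adjusted p = 0.000507) and by 1.02 in Bank1/Pax5 leukemia (-1.02, SE 0.10, adjusted p = 7.89e-06). The leukemias also differed from each other in Ikzf1, by -0.41 (SE 0.09, adjusted p = 0.0134), a call lost without the 3 arrays with low Pax5 (adjusted p = 0.0962).

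Foxp1, which competes with FOXO1, fell in both leukemias (-0.96 and -1.22, SE 0.21 each, adjusted p = 0.00494 and 0.00105), and so did Tcf3, encoding E2A (-1.06 and -1.77, SE 0.33 each, adjusted p = 0.0307 and 0.00166), and Ets1 (-0.88 and -1.13, SE 0.25 each, adjusted p = 0.0193 and 0.00499). The Pax5 calls of Tcf3 and Ets1 were lost without the arrays with low Pax5, and that of Tcf3 also without any single WT array. The pro-B and pre-B markers given above were lower on the same leukemia arrays. Of 15 markers, 3 were called lower in Pax5 and 4 in Bank1/Pax5 leukemia against WT, where 13.8% and 12.8% of all genes were. Ebf1 stands among these markers and among the 11 transcription factors, and its fall in Bank1/Pax5 leukemia is counted in both lists. The part of cell mixture in all these falls was not tested.

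**Figure D4:**
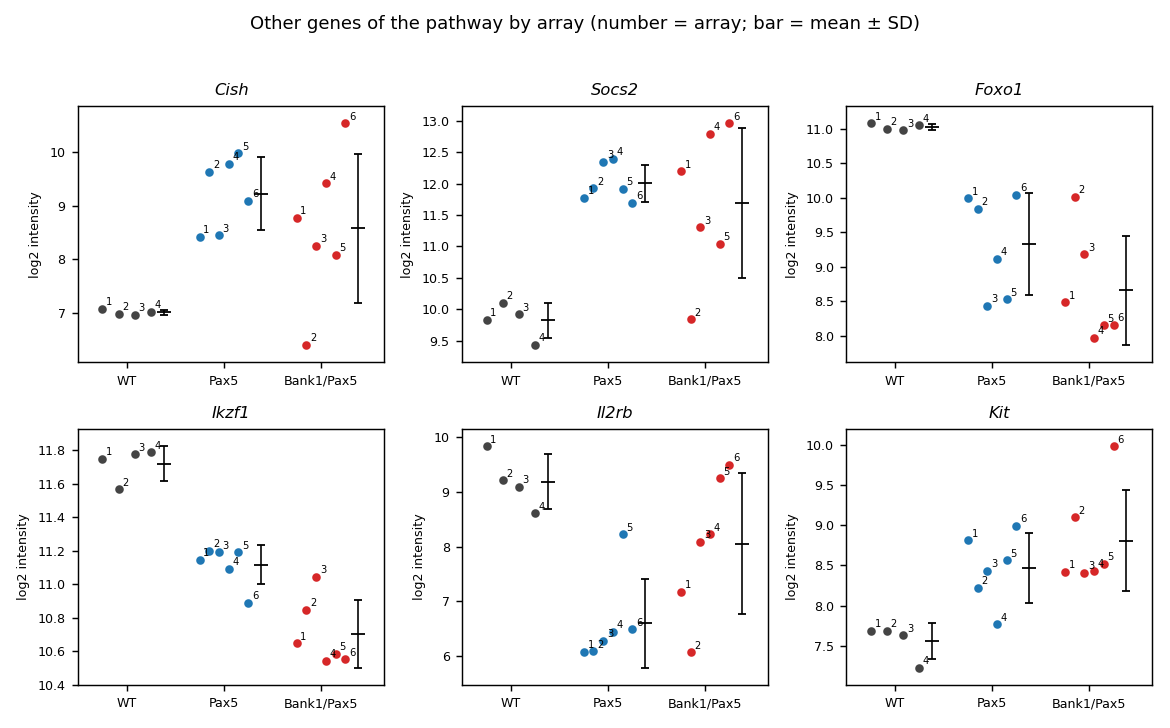
Log2 intensity (vertical axis, a separate scale for each gene) of 6 other pathway genes on every array, by group; points carry array numbers and bars are means with SD. Cish lies at 6.97 to 7.07 on the WT arrays and at 8.42 to 9.98 in Pax5 leukemias, while every leukemia array is below the WT arrays for Foxo1 and Ikzf1. Of all genes, 13.2% lay wholly below WT in Pax5 and 12.3% in Bank1/Pax5 leukemias.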

How the data were processed

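Total RNA of 16 samples was labelled with biotin and hybridised to mouse whole-transcript arrays, per the labels' protocols. The deposited values are log2 intensities per probe set, made with RMA and the oligo package per the submitters' processing notes, and they ran from 3.82 to 14.3. Probe sets were named through the platform's gene table: of 35556, 21789 named 1 gene, 1621 several and 12146 none. For each of 19938 genes the probe set with the highest mean was kept. Group means were fitted with limma 3.58.1 in R 4.3.3 (lmFit and eBayes, 13 residual degrees of freedom, all 16 arrays), and p-values were adjusted by the Benjamini-Hochberg method over all genes, with a call at an adjusted p under 0.05. The fit was tested on simulated data in which a gene had the same SD in every group. That test therefore does not cover the unequal spreads of the real groups. The number of arrays limits the precision.

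The members and the lists were chosen with earlier results of these data known. Of the lists, called genes among the 4 with the smallest p in a comparison are named, and for each member the 3 genes with the highest Pearson r. A few further called genes (Cish as a target, Socs6 and Ccnd3) qualify through another list or comparison. Il2rg, Jak3, Il7, Tslp, Bank1 and Pax5 were to be named whatever their result. Permutations used 100000 resamples and scipy 1.17.1. Alternatives changed the probe set rule, the filter on dim genes, scaling, moderation, array weights, the groups fitted, the replicate number as a block and the arrays left out. The labels give same-numbered samples no shared source and not every pair deviated together, so the numbers were not taken as pairs.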

Additional observations from a re-analysis of the deposited data

Results flagged for a closer look

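In 75 sets of 1 gene in 1 group, over the members and the pathway genes checked, 5 had a highest or lowest array separated from the rest by more than Dixon's 95% limit for the group size, and chance alone gives about 1 in 20 sets. Stat5a read 10.29 on Bank1/Pax5 array 6, above the other arrays of that group, with a gap of 0.668 of the range. Il2rb read 8.22 on Pax5 array 5, the highest of that group, with a gap of 0.807 of the range. Ikzf1 read 10.89 on Pax5 array 6, the lowest Pax5 leukemia, and 11.57 on WT array 2, the lowest WT array. Kit read 7.23 on WT array 4, the lowest of the WT arrays.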

How the results depend on the processing

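Of the members, 0 of 7 passed in Pax5 leukemia against WT, 3 with array weights, 1 with only the compared groups fitted, and 0 to 1 with 1 array left out (1 without Bank1/Pax5 array 6 or Pax5 array 2). With array weights these were Il7r (-0.84, adjusted p = 0.0258), Il2ra (-1.92, adjusted p = 0.0224) and Jak1 (-0.24, adjusted p = 0.00373). In Bank1/Pax5 leukemia against WT 1 passed, and 0 did with at least a 2-fold change, with cyclic loess or with the replicate block (Jak1 -0.26, adjusted p = 0.0786); leaving out arrays gave 0 to 1. Between the leukemias the count was 0 in every alternative run. The Jak1 difference in Bank1/Pax5 leukemia ranged from -0.31 to -0.15, with adjusted p from 0.00101 to 0.314.

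Directions turned for small differences. In Pax5 leukemia against WT, Crlf2 ranged from -0.0293 to 0.0795 with 1 array left out, Jak2 from -0.239 to 0.0146 and Stat5a from -0.115 to 0.0473, and Stat5a was 0.0216 with median centring. With 1 array left out, Stat5a in Bank1/Pax5 leukemia ranged from -0.0286 to 0.333 against WT and from -0.00818 to 0.353 against Pax5 leukemia, both lowest without Bank1/Pax5 array 6, and was 0.396 and 0.407 without the arrays with low Pax5. Il7r between the leukemias was -0.0076 with median centring and -0.247 to 0.145 with 1 array left out (0.19 without the arrays with low Pax5), and Jak1 was 0.0295 with cyclic loess. The Jak2 and Stat5b correlation was -0.067 within the Pax5 leukemias and -0.076 without Bank1/Pax5 arrays 4 and 6. The cause was not tested.

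Alternatives for other pathway genes, and the likeness without the farthest arrays, were chosen after seeing the data. Called pathway genes in Pax5 leukemia against WT went from 23 to 12 with the replicate block, 32 with array weights and 29 with only the compared groups fitted. With 1 array left out they were 13 to 26. In Bank1/Pax5 leukemia against WT they went from 17 to 14 with the replicate block and 30 with array weights (14 to 23 with 1 array left out). Between the leukemias 3 became 2 to 7 with 1 array left out. Over all genes the replicate block left 3112, 2542 and 696 calls of 4655, 3899 and 1336, array weights gave 8104, 6486 and 1293, fitting only the compared groups 5821, 3619 and 446, and leaving out the arrays with low Pax5 4266, 2750 and 659. The samples share only a number: deviations of same-numbered samples correlated at -0.379 to 0.122 over the 6 leukemia pairs (2 over 0.1), at -0.134 to 0.321 over the 4 Bank1/Pax5 and WT pairs (3 over 0.1, 2 best with their own number) and at -0.284 to 0.203 over the 4 Pax5 and WT pairs (1 over 0.1). Of the pathway genes named, the replicate block ended the Pax5 calls of Cish, Il15, Ifngr1, Il6ra, Stat6, Cblb, Socs6, Tcf3 and Ets1. It also ended the Bank1/Pax5 calls of Ifngr1, Mcl1 and Ebf1 and the Pias2 call between the leukemias, and it gave Il2rb a call in Bank1/Pax5 leukemia (adjusted p = 0.0427). Of the Pax5 against WT calls, 1901 rose and 2754 fell; with median centring 2021 rose and 1953 fell, and with cyclic loess 2253 and 2225. For Bank1/Pax5 against WT the split was 1356 and 2543, then 1495 and 2099, then 2034 and 2012. Between the leukemias 340 rose and 996 fell, and with cyclic loess 451 and 588.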
